A study of Mus musculus with 12 samples.

Results

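Complement and coagulation are the cascades of plasma proteases that mark foreign or damaged surfaces and form the fibrin clot. The 41 genes described here encode their components. They were chosen by gene symbol, and all 41 were found among the 22276 gene symbols of the deposited values, with a value in every library. RNA-seq libraries came from white fat (WAT), brown fat (BAT), liver and muscle of male C57BL/6J mice aged 17 wk. The mice were on a normal chow diet (NCD) or, from 8 wk of age, on a high-fat diet (HFD), and were gavaged weekly with vehicle (veh) or narciclasine (ncls), a plant alkaloid, from 10 wk of age. The groups NCD-veh, HFD-veh, HFD-ncls gave 1 library per organ each, 12 libraries in all, and where 3 values of an organ follow each other they stand in this order. The number of mice behind a library is not given in the sources used here. With 1 library per combination no difference could be set against a spread between animals, so every difference is a description of 2 libraries, with no test.

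Hepatocytes make most circulating complement proteins, clotting factors, fibrinogen and the serpins that restrain them. C1q is a textbook exception, made by macrophages, and adipose tissue is a known source of C3, factor B and factor D. Complement runs from recognition (C1q, or the mannose-binding lectins with their MASP proteases) through C4, C2 and C3 to the membrane attack complex, and coagulation runs from the contact factors and factor VII to thrombin, which cleaves fibrinogen.

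Levels are FPKM, fragments counted per exon length and scaled to the mapped fragments of the library, so that genes can be set side by side. At least 1 FPKM was reached by 9130 (NCD-veh muscle) to 12052 genes (HFD-ncls WAT). The lowest relative depth, judged by the steps between low values, was 0.707 in HFD-ncls WAT against 1 in HFD-veh muscle, so a member near 0 was read with similar precision in all libraries. Each organ carried its markers. The summed level of 8 adipocyte genes was 17864 to 20547 FPKM in WAT and 9795 to 10506 in BAT, 6 brown adipocyte genes came to 3881 to 4297 in BAT, 10 skeletal muscle genes to 85091 to 88296 in muscle and 27 liver genes to 83950 to 90398 in liver. Some libraries stood apart. The 27 liver genes, none of them a member, summed to 532 FPKM in HFD-veh muscle against 17.9 and 8.35 in NCD-veh and HFD-ncls muscle. The 10 muscle genes summed to 1818, 766 and 110 FPKM in BAT, and to 55.0 in HFD-veh liver against 2.13 and 3.15 in the other liver libraries.

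Liver had the highest mean level for 34 of the 41 genes and WAT for the other 7, and none was highest in BAT or muscle. Shares over all genes were not computed, so this count and the next describe the members alone. A gene was called liver-made where each liver library was at least 10 times every other library, which held for 28 of 41. Their liver means ran from 17.1 FPKM (Masp1) to 1755 (Fgb), with a median of 217. The heatmap of all members shows these genes as a block that is bright in the liver columns and dark elsewhere, apart from a faint trace in HFD-veh muscle and in both HFD libraries of WAT.

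**Figure D1:**
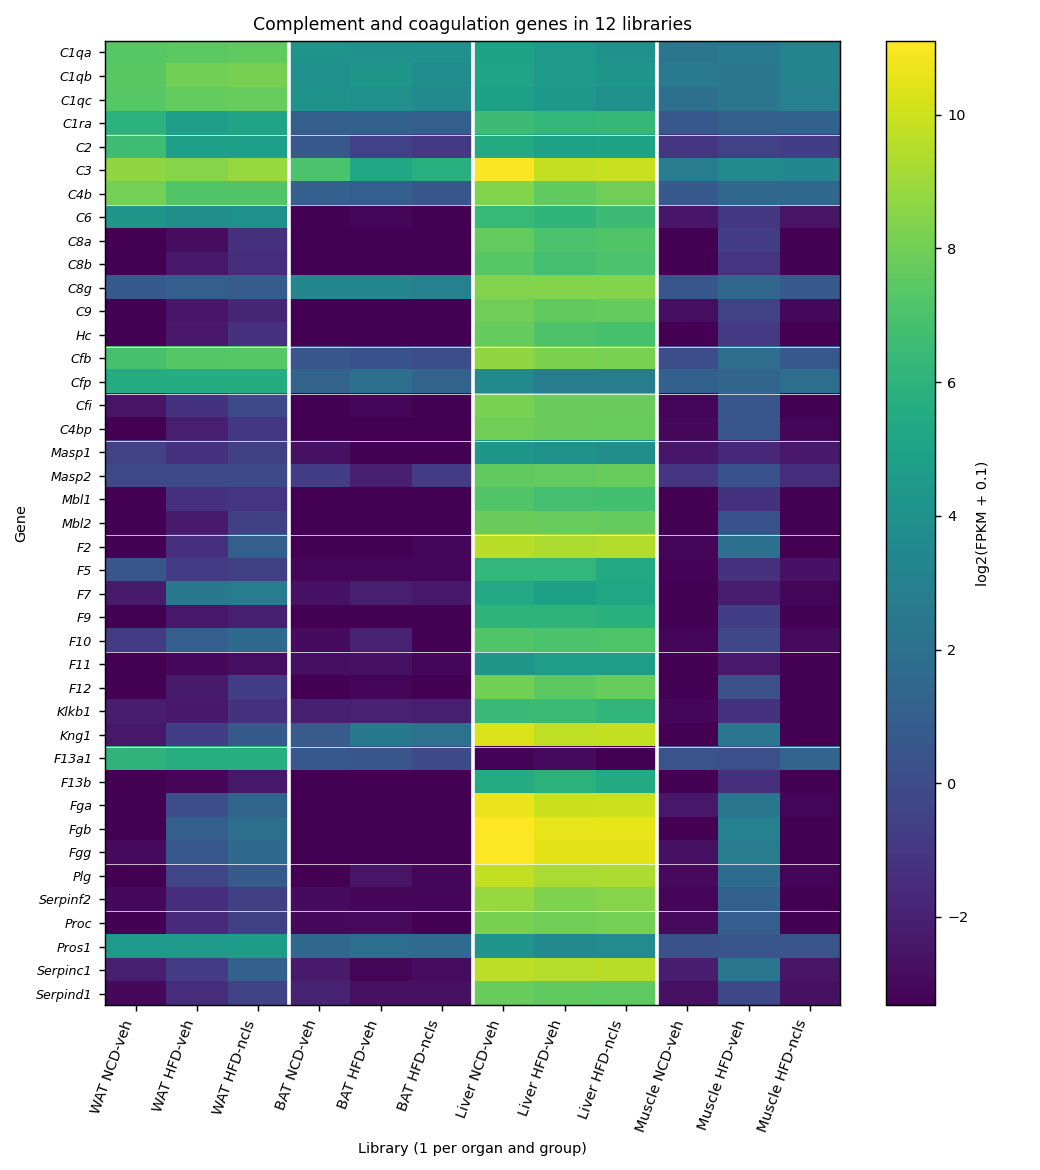
Level of the 41 genes (rows, grouped by role with thin lines between roles) in the 12 libraries (columns), as log2(FPKM + 0.1) on the colour scale. Liver-made genes are bright in the 3 liver columns, while C1qa, C1qb, C1qc, Cfp, F13a1, Pros1 and C2 have their highest organ mean in WAT.

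The fibrinogen genes head the liver-made set. Their 3 chains form 1 hexamer and their genes lie side by side on chromosome 3 (mm9), from Fgg at 82811781 to Fgb at 82853725, a span of 41.9 kb. Fgb, the beta chain, had 2206, 1546 and 1513 FPKM in liver. Fgg, the gamma chain, had 2203, 1480 and 1477, and Fga, the alpha chain, 1632, 1009 and 1016. NCD-veh liver was the highest for each chain and the HFD libraries lay close together. In WAT, Fga had 0, 0.944 and 2.42 FPKM, Fgb 0, 1.94 and 3.58, and Fgg 0.0332, 1.43 and 2.93, and all 3 chains were listed at 0 in the 3 BAT libraries.

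The 250 bases before the start site of the fibrinogen chains, which share organ and proportions, and of F7, the coagulation protease with the highest level in WAT, are shown with those of C1qb and C1qc, which are highest in WAT. They are from RefSeq (GRCm38.p6), each written 5′ to 3′ on the gene's own strand. Capitals mark matches, on either strand, to GTTAAT (core of the HNF1 motif), TGACCTTTG (HNF4) or TTGCNNAA (C/EBP), which are motifs of factors active in liver. Fga is chr3:83025903-83026152 (plus strand), Fgb chr3:83049864-83050113 (minus), Fgg chr3:83007474-83007723 (plus), F7 chr8:13025784-13026033 (plus), C1qb chr4:136886201-136886450 (minus) and C1qc chr4:136892915-136893164 (minus).
Fga: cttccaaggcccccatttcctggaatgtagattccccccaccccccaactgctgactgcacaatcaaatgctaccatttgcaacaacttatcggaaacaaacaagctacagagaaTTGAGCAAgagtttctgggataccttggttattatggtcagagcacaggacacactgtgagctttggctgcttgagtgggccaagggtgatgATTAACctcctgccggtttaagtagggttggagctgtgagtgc
Fgb: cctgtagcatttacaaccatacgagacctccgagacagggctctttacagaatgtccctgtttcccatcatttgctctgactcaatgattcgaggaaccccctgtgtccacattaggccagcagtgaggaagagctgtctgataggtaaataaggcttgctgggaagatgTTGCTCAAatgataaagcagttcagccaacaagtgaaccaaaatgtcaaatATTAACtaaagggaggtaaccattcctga
Fgg: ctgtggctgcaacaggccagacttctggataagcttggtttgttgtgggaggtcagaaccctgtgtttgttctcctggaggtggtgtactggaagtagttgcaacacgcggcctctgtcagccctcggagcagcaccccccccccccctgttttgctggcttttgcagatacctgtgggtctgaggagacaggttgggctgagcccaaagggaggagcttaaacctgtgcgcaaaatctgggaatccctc
F7: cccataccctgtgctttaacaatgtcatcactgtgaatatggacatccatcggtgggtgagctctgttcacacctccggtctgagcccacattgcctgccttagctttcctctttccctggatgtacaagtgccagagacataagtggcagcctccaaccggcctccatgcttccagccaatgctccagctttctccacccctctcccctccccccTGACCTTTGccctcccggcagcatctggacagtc
C1qb: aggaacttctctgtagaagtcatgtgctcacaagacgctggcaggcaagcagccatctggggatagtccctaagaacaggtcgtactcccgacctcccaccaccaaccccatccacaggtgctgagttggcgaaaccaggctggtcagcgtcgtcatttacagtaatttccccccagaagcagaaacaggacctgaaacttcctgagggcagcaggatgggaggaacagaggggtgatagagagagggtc
C1qc: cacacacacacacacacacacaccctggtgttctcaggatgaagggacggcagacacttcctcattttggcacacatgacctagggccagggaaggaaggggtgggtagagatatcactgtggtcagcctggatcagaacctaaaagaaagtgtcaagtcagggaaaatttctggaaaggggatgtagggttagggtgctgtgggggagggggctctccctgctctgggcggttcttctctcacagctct

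Fga held ATTAAC, the reverse complement of GTTAAT, from base -43 and a C/EBP match from base -135, and Fgb held the same pair from bases -29 and -80. F7 held the HNF4 letters from base -34, and none of these letters was found in the windows of Fgg, C1qb and C1qc. Such windows were found for 32 of the 41 members; C1qa, C2, C4b, Cfb, Cfi, Kng1, Masp1, Plg and Proc had none. GTTAAT was present in 9 of the 32 (28.1%) against 6.52% of 27025 windows of all genes, TTGCNNAA in 7 (21.9%) against 9.55%, and TGACCTTTG in 1 (3.12%, F7) against 0.407%. A match of letters is a description and not evidence of binding.

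Other liver-made genes were ordered by role. In the terminal pathway, C8g, the gamma chain of C8, had 327 to 351 FPKM in liver, and C9, which polymerises into the pore, 192 to 249. C8a, C8b and Hc (complement C5) were at 110 to 204. Of the regulators, Cfi, the protease that inactivates C3b and C4b, had 220 to 292 FPKM, and C4bp, its cofactor for C4b, 219 to 250. In the lectin pathway the mannose-binding lectins Mbl1 and Mbl2 had 108 to 226 FPKM and Masp2, the protease that cleaves C4, 193 to 220, while Masp1 was lowest at 14.0 to 20.2.

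On the coagulation side the highest after fibrinogen were Kng1 (kininogen) at 1327, 842 and 869 FPKM, Serpinc1 (antithrombin) at 729 to 811, F2 (prothrombin) at 642 to 779 and Plg (plasminogen) at 623 to 896. Serpinf2, the plasmin inhibitor, had 316 to 481, Proc (protein C) 248 to 281 and Serpind1 (heparin cofactor) 182 to 212. F12, which starts the contact pathway, had 175 to 259, and Klkb1 (plasma prekallikrein) 72.8 to 90.4. F10, F5, F9, F13b and F11 ran from 149 FPKM (F10 in NCD-veh) down to 19.7 (F11 in NCD-veh). Of the 28 liver-made genes, 25 were under 0.2 FPKM in all BAT libraries. The exceptions were C8g (10.1, 10.1 and 7.95 FPKM), Kng1 and Masp2. C8g lies on chromosome 2 across Fbxw5 on the opposite strand. Fbxw5 had 18.8 to 20.7 FPKM in BAT, 20.5 to 22.1 in WAT and 29.3 to 32.3 in muscle. C8g had at most 1.89 FPKM in WAT and 2.59 in muscle. The part of Fbxw5 reads in the C8g values was not tested. Masp2 overlaps Tardbp. A strand-specific count is not stated, so reads of these pairs may not be told apart.

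The 13 genes that were not liver-made had C1qa, C1qb, C1qc, C1ra, C2, C3, C4b, C6, Cfb and Cfp on the complement side and only F7, F13a1 and Pros1 on the coagulation side. The 3 C1q chains assemble into the molecule that recognises antibody and dying cells, and their genes lie within 18.7 kb of chromosome 4 (mm9, 136436044 to 136454718). C1qa had 162, 176 and 196 FPKM in WAT, 17.4, 16.8 and 15.8 in BAT, 32.8, 22.2 and 17.2 in liver and 4.98, 5.86 and 8.80 in muscle. C1qb had 171, 262 and 285 in WAT, 15.2, 19.7 and 13.2 in BAT, 34.7, 21.6 and 18.9 in liver and 5.88, 5.11 and 8.68 in muscle. C1qc had 163, 211 and 215 in WAT, 16.7, 15.1 and 11.2 in BAT, 28.8, 20.6 and 15.1 in liver and 3.85, 5.27 and 7.75 in muscle. Each chain was thus highest in the 3 WAT libraries and lowest in the 3 muscle libraries, with no overlap between these organs and the rest. The share of all genes with such an order was not computed. The BAT and liver values overlapped. The WAT mean was 7.38 to 9.56 times the liver mean. Each chain made up 26.2% to 41.0% of the C1q sum in the 12 libraries.

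**Figure D2:**
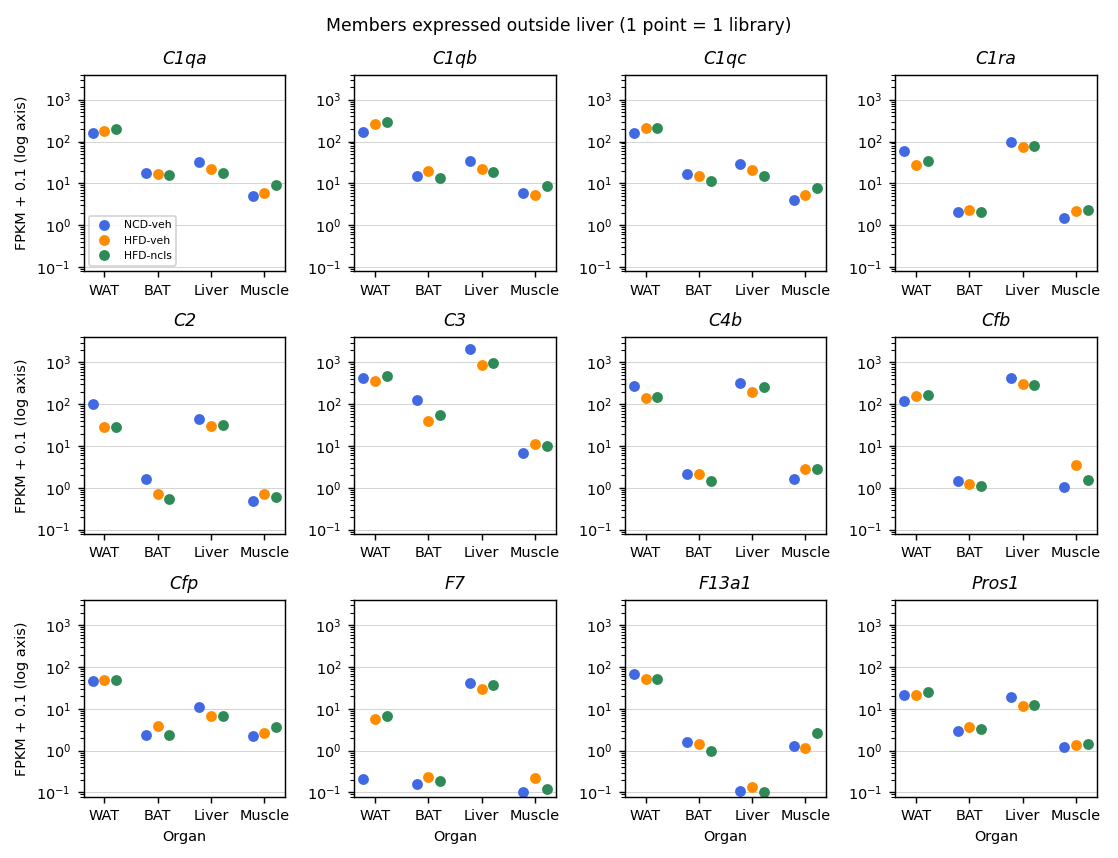
FPKM + 0.1 (log axis) of 12 members that are not liver-made, by organ, with 1 point per library coloured by group. C1qa, C1qb and C1qc lie above 100 FPKM in WAT and under 40 in every other organ, and F7 is high in liver and, in the HFD groups only, at 5.55 and 6.61 FPKM in WAT.

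The mean C1q level was set beside 2 macrophage genes. It was 2.89 to 5.22 times Csf1r, the receptor for the macrophage growth factor, in the 12 libraries, while C1q itself ran from 4.90 FPKM in NCD-veh muscle to 232 in HFD-ncls WAT. Relative to Cd68, a lysosomal macrophage protein, it was 3.34 in NCD-veh WAT and 1.10 and 1.05 in HFD-veh and HFD-ncls WAT. The same ratio was 4.55, 1.88 and 5.16 in BAT, 4.93, 4.92 and 4.81 in liver and 3.70, 3.36 and 4.04 in muscle. In these bulk samples fewer cells of a type and less RNA per cell cannot be told apart.

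C3, which all complement pathways cleave, had 414, 354 and 476 FPKM in WAT, 129, 40.0 and 55.0 in BAT, 2078, 868 and 955 in liver and 6.79, 11.4 and 10.2 in muscle. It was the only member above 20 FPKM in BAT. C4b, the classical pathway's C4, had 268, 145 and 148 FPKM in WAT, 330, 195 and 256 in liver, 2.05, 1.99 and 1.37 in BAT and 1.53, 2.80 and 2.70 in muscle. Its near-identical copy C4a had 60.1, 33.3 and 31.9 in WAT, so the split between the 2 copies is uncertain. C2, the protease that pairs with C4, had 100, 27.9 and 27.9 in WAT and 44.8, 30.5 and 32.3 in liver, so its order between WAT and liver differed between NCD-veh and the HFD groups. In BAT it had 1.51, 0.600 and 0.451 FPKM, and in muscle 0.377, 0.603 and 0.511.

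Cfb, the alternative pathway's protease, had 121, 158 and 165 FPKM in WAT and 419, 308 and 293 in liver. Cfp (properdin), which stabilises the alternative convertase and is made by myeloid cells, had 47.4, 49.1 and 48.7 in WAT, 2.28, 3.85 and 2.31 in BAT, 11.2, 6.61 and 6.49 in liver and 2.17, 2.49 and 3.64 in muscle. C1ra, the C1 protease, had 60.2, 26.6 and 34.5 in WAT and 95.1, 74.4 and 79.1 in liver, 1.99, 2.15 and 1.93 in BAT and 1.42, 2.03 and 2.15 in muscle, and its neighbour and close paralog C1rb had 26.5, 11.7 and 14.5 in WAT. Among the terminal components C6 alone was above 2 FPKM in WAT, at 19.6, 14.1 and 14.8, against 70.5 to 96.1 in liver.

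F13a1, the catalytic chain of the enzyme that cross-links fibrin, was the only member all but absent from liver. It had 66.6, 51.5 and 51.1 FPKM in WAT, 1.50, 1.35 and 0.894 in BAT, 1.21, 1.04 and 2.53 in muscle, and in liver 0.0107, 0.0335 and listed at 0. Its carrier chain F13b had the opposite pattern, with 44.3 to 60.8 in liver and at most 0.0911 in WAT. Pros1 (protein S), the cofactor of protein C, had 21.9, 21.6 and 24.9 FPKM in WAT, 2.88, 3.63 and 3.24 in BAT, 18.6, 11.9 and 12.5 in liver and 1.10, 1.23 and 1.32 in muscle.

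Liver RNA was gauged before the groups were compared, because many members are abundant in liver. In HFD-veh muscle each of the 28 liver-made genes exceeded the mean of NCD-veh and HFD-ncls muscle. As a percent of their level in HFD-veh liver the median excess was 0.511% (quartiles 0.369% and 0.605%, range 0.285% to 0.758%). The 27 liver genes that are no members had a median of 0.583% (range 0.331% to 0.860%), and 24 of the 28 members lay inside that range. The 3 fibrinogen chains made up 25.2% (Fga), 41.1% (Fgb) and 33.8% (Fgg) of their sum in HFD-veh muscle, against 25.0%, 38.3% and 36.7% in HFD-veh liver. Of the 28 genes, 11 were listed at 0 in NCD-veh muscle, 17 in HFD-ncls muscle and none in HFD-veh muscle.

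In HFD-ncls WAT the excess over HFD-veh WAT was above 0 for 27 of 28 liver-made genes, with a median of 0.142% of the HFD-ncls liver level. The other liver genes had a median of 0.178% (range -0.808% to 0.359%), and 26 of the 28 members lay inside. HFD-veh WAT in turn exceeded NCD-veh WAT, by a median share of 0.0744% of liver for these members and 0.0649% for the other liver genes. Members listed at 0 numbered 16 of 28 in NCD-veh WAT and none in either HFD library. In BAT the median level was at most 0.00128% of liver. In the plot of levels against liver, most liver-made genes and other liver genes share a band near 0.5% in HFD-veh muscle. They share a lower, wider one in HFD-ncls WAT.

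**Figure D3:**
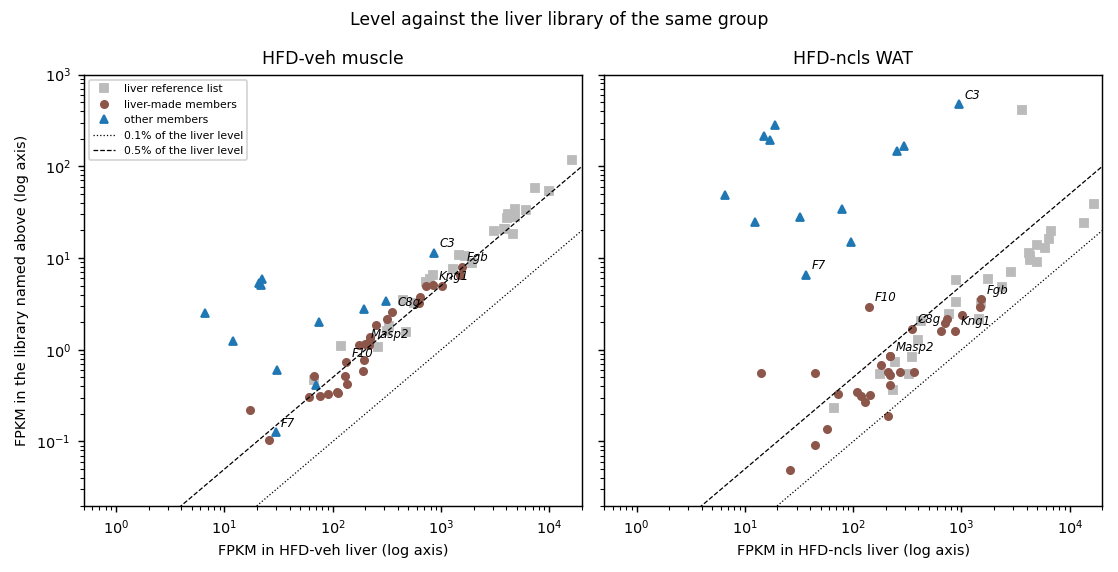
Level in HFD-veh muscle (left) and HFD-ncls WAT (right) against the level in the liver library of the same group, in FPKM on log axes, with 1 point per gene and lines at 0.1% and 0.5% of the liver level. Most liver-made members lie with the liver reference genes, whose median level was 0.626% of liver in muscle and 0.252% in WAT. F7 lies far above the band in WAT (18.0%) and within it in muscle. In WAT the liver-made Masp1 (4.01%), F10 (2.08%) and F5 (1.24%) and the reference gene Cyp2e1 (11.3%) also lie above it.

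F7, which encodes the protease that pairs with tissue factor to start clotting, departed from that band in WAT. It had 0.106, 5.55 and 6.61 FPKM in WAT and 42.1, 29.6 and 36.7 in liver, 0.0635, 0.133 and 0.0886 in BAT and 0, 0.127 and 0.0215 in muscle. Both HFD libraries of WAT were high and NCD-veh WAT low. The excess in HFD-veh WAT was 18.4% of the HFD-veh liver level, against 0.393% in HFD-veh muscle. F10, its substrate, which starts 1499 bases from the end of F7 on chromosome 8 (mm9), had 0.495, 1.92 and 2.94 FPKM in WAT, with an excess of 1.08% in HFD-veh WAT. In muscle the excess of F10 was 0.538%.

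Ratios between libraries are given as log2 of (FPKM + 0.1), for genes with at least 1 FPKM in either library, and are called past 2-fold. The HFD-veh library of each organ enters both the diet and the ncls comparison, so these are not separate evidence. In the plot of ratios the medians lie between -0.42 and 0.22 in WAT, BAT and liver and far from 0 in muscle.

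**Figure D4:**
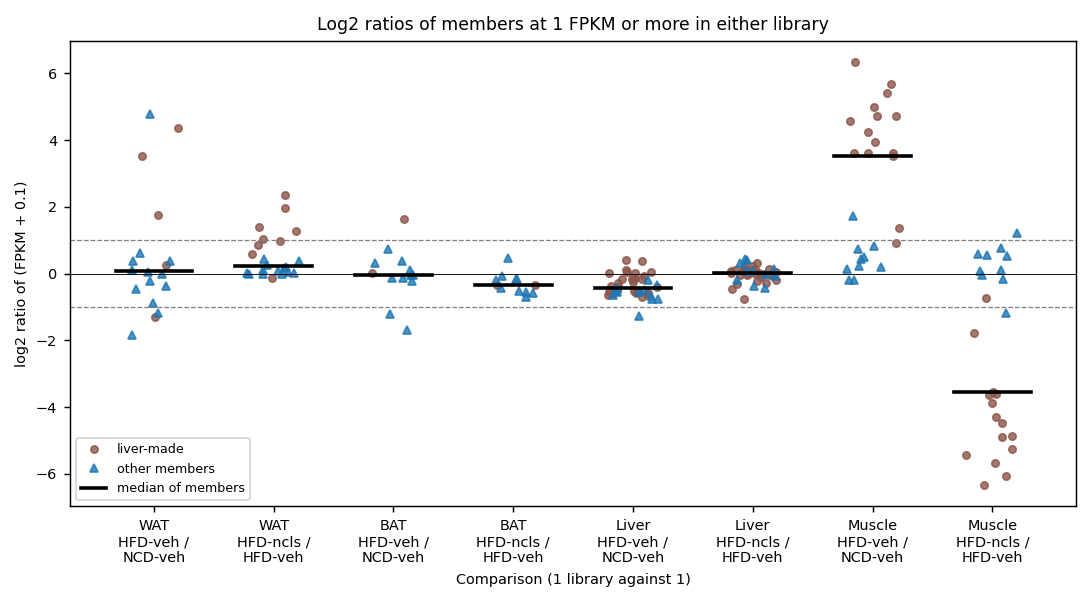
Log2 ratio of each member with at least 1 FPKM in either library, for the diet and ncls comparisons of each organ, with liver-made members as circles, others as triangles and the median as a bar. Dashed lines mark 2-fold. Of the 15 liver-made genes compared in muscle, 14 lie above it for HFD-veh against NCD-veh and below it for HFD-ncls against HFD-veh. These 14 reached 1 FPKM only in HFD-veh muscle. The median moves from 3.54 to -3.54 at a pseudocount of 0.1 (from 1.09 to -1.08 at 1).

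In liver, members were lower on HFD by a modest amount. Between HFD-veh and NCD-veh, 33 of the 40 compared were lower and 7 higher, with a median log2 ratio of -0.42 against 0.04 over all genes, and 46.0% of all genes were lower. Past 2-fold, C3 alone was lower (-1.26) and no member higher, against 2.27% of all genes lower and 2.86% higher. Past 1.4-fold 18 members were lower and none higher, against 10.5% and 13.3% of all genes. All 12 compared members that are not liver-made were lower (median -0.56), and 21 of the 28 liver-made ones (median -0.26).

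By role, all members were lower among C1q and C1ra (4), C2, C3 and C4b (3), Cfb and Cfp (2), Cfi and C4bp (2), the plasmin system (2) and the anticoagulants (4). The proteases and cofactors of coagulation had a median of -0.17, with F5 (0.00) and F9 (0.02) level. Fga (-0.69), Fgg (-0.57) and Fgb (-0.51) were lower, as were Kng1 (-0.66), Pros1 (-0.64), C4b (-0.76) and Cfp (-0.76). F11 (0.40) and F13b (0.36) had the highest ratios. The 6 Kupffer cell genes, markers of the macrophages of liver, summed to 82.2, 55.1 and 37.4 FPKM, an order that C1qa, C1qb and C1qc share. Their part in the C1q ratios was not tested.

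**Figure D5:**
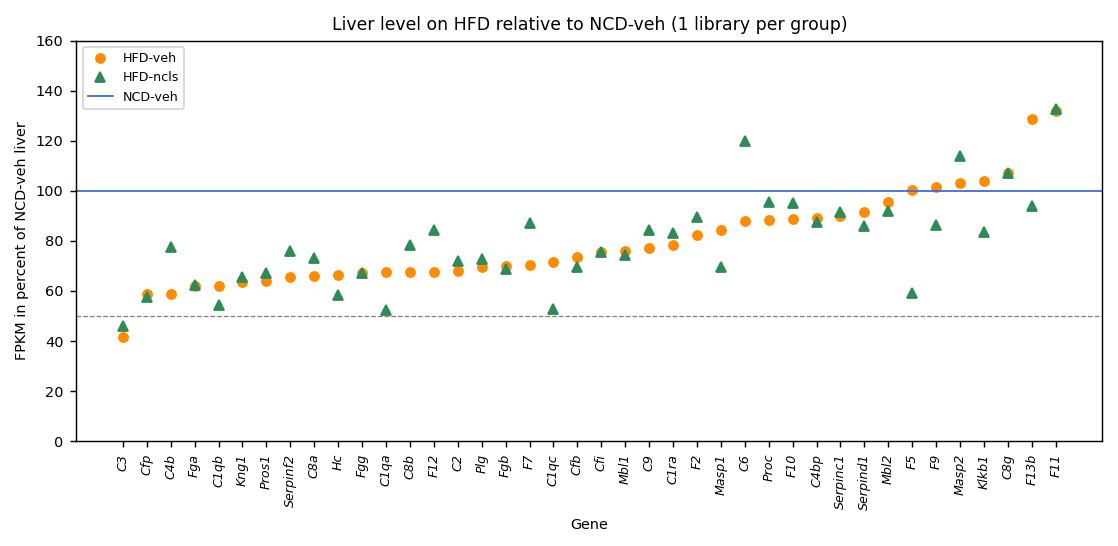
Level of 40 members in HFD-veh (circles) and HFD-ncls (triangles) liver as a percent of the NCD-veh liver level, with genes in order of the HFD-veh value and 1 library per group. C3 is lowest, at 41.8% in HFD-veh and 46.0% in HFD-ncls liver, and most genes lie under the 100% line in both.

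Between HFD-ncls and HFD-veh liver, members were centred on 0, with 22 higher and 18 lower of 40 and a median log2 ratio of 0.01. None passed 2-fold, against 1.00% of all genes higher and 1.31% lower. C6 (0.45), C4b (0.40), F12 (0.32) and F7 (0.31) had the highest ratios. F5, the cofactor that speeds thrombin formation, had the lowest (-0.76), at 75.7, 75.9 and 44.9 FPKM in the 3 groups. C1qc (-0.44) and C1qa (-0.36) were lower, beside the lower Kupffer cell sum. Against NCD-veh, HFD-ncls liver had a median of -0.38, next to -0.42 for HFD-veh, with NCD-veh liver common to both.

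In WAT, diet went with unlike differences in parts of the classical pathway. Of 18 members compared between HFD-veh and NCD-veh, 4 were higher past 2-fold (22.2% against 5.24% of all genes) and 3 lower (16.7% against 3.87%). C2 (-1.84), C1ra (-1.18) and F5 (-1.32; 1.30, 0.463 and 0.556 FPKM) were the lower ones. F5 was under 1 FPKM in HFD-veh WAT and was admitted through NCD-veh WAT, where it is high. The lower share thus follows in part from the filter. With a pseudocount of 1 the ratio of F5 was -0.65. C4b (-0.89) and C6 (-0.47) lay in the same direction as these 3. C1qb (0.62), Cfb (0.39), C1qc (0.38) and C1qa (0.12) lay in the other. Within the C1 complex the recognition chains and the protease thus had opposite signs.

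Cell type markers moved beside these values. Of 14 macrophage genes, 12 were higher in HFD-veh than NCD-veh WAT, their sum being 987, 1570 and 1926 FPKM. Of 8 genes of mesothelium and stroma, 6 were lower, 4 of them past 2-fold, with sums of 1750, 1199 and 1339. Upk3b, a mesothelial gene, had 104, 37.8 and 37.3. The part of these cells in the differences of C1q, C2, C1ra and C4b was not tested.

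The 4 higher members were F7 (4.78), Fgb (4.35), Fgg (3.53) and F10 (1.76). Each was under 1 FPKM in NCD-veh WAT and was admitted through HFD-veh WAT, where it is high, so their share follows in part from the filter. With the liver share of each library taken off, that is, the median level of the other liver genes times the liver FPKM, F7 (4.78), F10 (1.70), C1ra (-1.18), C2 (-1.84) and F5 (-1.48) were past 2-fold. Fgb and Fgg then had 0.717 and 0.262 FPKM in HFD-veh WAT and 0 in NCD-veh WAT, under the 1 FPKM needed for a comparison.

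Between HFD-ncls and HFD-veh WAT, 5 of 22 members were higher past 2-fold (22.7% against 1.49% of all genes) and none lower (against 0.214%). They were F2 (2.34), Serpinc1 (1.96), Fga (1.27), Plg (1.04) and Kng1 (0.0941, 0.552 and 1.62 FPKM), all liver-made and at most 2.42 FPKM. Each was under 1 FPKM in HFD-veh WAT and was admitted through HFD-ncls WAT, where it is high. Their share against all genes thus follows in part from the filter. With the liver share taken off, all 5 were under 1 FPKM in both libraries and were no longer compared, and none of the 15 members still compared was past 2-fold. Where genes were instead admitted by their deposited level, a choice made after seeing the data, F2 (1.49) and Serpinc1 (2.01) stayed higher, Fga (-1.29) and Plg (-1.73) were lower and Kng1 was at 0 in both libraries. None of these subtracted levels was above 0.302 FPKM. The 13 members that are not liver-made had a median of 0.07 and ranged from F13a1 (-0.01) and Cfp (-0.01) to C3 (0.43) and C1ra (0.37). C2 (0.00), C4b (0.03), Cfb (0.06) and C1qc (0.02) were almost level.

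In BAT few members were expressed. Between HFD-veh and NCD-veh, 1 of 13 compared was higher past 2-fold (7.69% against 2.28% of all genes) and 2 were lower (15.4% against 2.01%). C3 was lower (-1.68) and C2 also (-1.20), the latter between 1.51 and 0.600 FPKM. C2 was under 1 FPKM in HFD-veh BAT and was admitted through NCD-veh BAT, where it is high. The lower share thus follows in part from the filter. With a pseudocount of 1 the ratio of C2 was -0.65. Kng1 was higher (1.64), at 1.70, 5.50 and 4.29 FPKM, where its paralog Kng2 had 14.5, 53.0 and 41.1, so the split of reads between the 2 genes is uncertain. The fibrinogen chains, more abundant than Kng1 in liver, were listed at 0 in BAT. The source of the Kng1 RNA in BAT was not tested. Between HFD-ncls and HFD-veh none of 12 passed 2-fold, against 0.261% of all genes higher and 1.70% lower. In this comparison 11 of the 12 were lower (median -0.35) and C3 was the exception (0.46), while 54.0% of all genes were lower (median -0.02). C1qb (-0.57), Cfp (-0.72) and F13a1 (-0.54) were among the lower. The macrophage genes summed to 77.8, 120 and 74.2 FPKM in the 3 BAT libraries.

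In muscle most of the genes past 2-fold were liver-made. Between HFD-veh and NCD-veh, 15 of 25 members were higher past 2-fold (against 3.14% of all genes) and none lower (against 0.970%), with a median of 3.54. Members at 1 FPKM or more numbered 10 in NCD-veh and 25 in HFD-veh muscle. Each of the 15 was under 1 FPKM in NCD-veh muscle and was admitted through HFD-veh muscle, where it is high. The share of members past 2-fold and the median thus follow in part from the filter. The size of this median also depends on the pseudocount. It was 1.09 with a pseudocount of 1 and 5.34 with 0.01, 2.14 without a filter, 0.74 for members at 5 FPKM or more and 0.07 for the 11 members left with the liver share taken off. Fgb had 8.01 FPKM in HFD-veh muscle and was listed at 0 in the others, Fgg had 0.0558, 6.59 and 0, Fga 0.0906, 4.90 and 0.0146, and Kng1 5.06 in HFD-veh and 0 in the others. Between HFD-ncls and HFD-veh, 15 of 25 were lower (against 2.53%) and 1 was higher (against 1.27%), with a median of -3.54. That median was -1.08, -5.41, -2.14, -0.16 and 0.61 under the same changes in the same order, so its sign turned with the liver share taken off. The 15 lower ones, all but Cfb, were under 1 FPKM in HFD-ncls muscle and were admitted through HFD-veh muscle. The higher one was F13a1 (1.21).

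Of the 15, all but Cfb (1.74 and -1.18) are liver-made. With the liver share taken off (0.626% of liver in HFD-veh muscle), 11 of the 25 members were still at 1 FPKM or more, and among these C8g alone was past 2-fold between HFD-veh and NCD-veh (-1.53), and C8g (1.70) and F13a1 (1.21) between HFD-ncls and HFD-veh. C8g had 1.33, 2.59 and 1.51 FPKM as deposited (ratios of 0.91 and -0.74) and 0.396 in HFD-veh muscle after subtraction. C3 in HFD-veh muscle was 11.4 FPKM as deposited and 5.98 after subtraction, beside 6.75 in NCD-veh and 10.2 in HFD-ncls muscle. C4b had 1.52, 1.58 and 2.70 FPKM in muscle after subtraction. These values depend on the share: with 0.525%, the median level of the liver-made members, chosen after seeing the data, C3 was 6.86 FPKM (ratio 0.02 in place of -0.17) and C8g 0.748 FPKM (-0.75 in place of -1.53, no longer past 2-fold). Cfb in HFD-veh muscle was 3.42 FPKM as deposited and 1.49 after subtraction, beside 0.946 in NCD-veh and 1.45 in HFD-ncls muscle. Its diet ratio was 1.74 as deposited and 0.60 after subtraction, or 0.86 with the 0.525% share.

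C1qa in HFD-veh muscle was 5.86 FPKM as deposited and 5.73 after subtraction. Between HFD-ncls and HFD-veh muscle the C1q chains had ratios of 0.55 (C1qc), 0.58 (C1qa) and 0.75 (C1qb), with Cfp at 0.53. The macrophage genes summed to 27.6, 31.9 and 44.9 FPKM in muscle. C1q was 3.52, 3.97 and 3.96 times Csf1r there. The part of macrophage number was not tested.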

How the data were processed

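Total RNA of 4 organs from 3 groups of mice was sequenced, 12 libraries in all. Per the labels and methods, reads were placed on mm9 by TopHat, and the authors deposited 1 FPKM value per RefSeq gene symbol and library, made with Cufflinks. No further scaling between libraries is stated. Libraries were assigned from the sample labels.

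Computations used Python 3.11.15, numpy 2.4.6 and pandas 2.3.3, with plots by matplotlib 3.10.9. FPKM are not counts, so no count model was fitted, and with 1 library per group no p-value is given. Ratios used a pseudocount of 0.1, a minimum of 1 FPKM in either library and a threshold of 2-fold; 86 symbols lacked a value in at least 1 library. Member and gene lists were chosen with earlier results of these data known. Values in every library were printed for the C1q genes, C3, C4b, fibrinogen, members highest outside liver and those past 2-fold at 5 FPKM or more. The ratio and share scripts were tested on simulated data. Alternatives covered the pseudocount, filter, rescaling by the median ratio, threshold and removal of the liver share, with alternatives on that removal added after seeing the data. Positions on mm9 are from GENCODE, and promoter sequences from RefSeq on GRCm38.p6, a different build.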

Additional observations from a re-analysis of the deposited data

Results flagged for a closer look

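For 5 genes the ratio of HFD-ncls to HFD-veh lay above 2-fold in WAT and below it in muscle, so the libraries of these organs moved in opposite directions. The gap between the log2 ratios (WAT minus muscle) was 7.60 for F2, 7.09 for Kng1, 6.84 for Serpinc1, 6.72 for Fga and 5.92 for Plg. All are liver-made, and 20 of 21 compared liver genes that are no members were higher in HFD-ncls than HFD-veh WAT (median log2 ratio 1.75), while in muscle 26 of 26 were lower (median -5.99). In each organ the 5 genes reached 1 FPKM in only 1 library of the comparison. The difference between the organs was not tested, since each organ and group has 1 library.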

How the results depend on the processing

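No paired analysis was possible because each organ and group has 1 library and the labels give no replicate numbers. The count of members past 2-fold moved with the filter on FPKM. With at least 5 FPKM it was 3 (from 7) for diet in WAT, 0 (from 5) for ncls in WAT, and 3 for both comparisons in muscle (from 15 and 16). Without a filter it was 20 and 14 in WAT, 2 (from 0) for ncls in BAT and 29 for both comparisons in muscle. A pseudocount of 1 gave 2 for ncls in WAT. At 1.4-fold it was 8 for ncls in WAT, 4 for ncls in BAT, 18 (from 1) for diet in liver and 1 (from 0) for ncls in liver. With the liver share taken off it was 0 for ncls in WAT, 1 for diet in muscle and 2 for ncls in muscle, and the median ratio for ncls in muscle turned from -3.54 to 0.61. With genes admitted by their deposited level instead, a setting chosen after seeing the data, it was 5 and 6 in muscle, with a median of 0.13 for ncls.

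The median liver share of liver-made genes in HFD-veh muscle (0.511%) was 0.525% with nothing subtracted, 0.406% against NCD-veh liver and 0.520% for liver means of at least 100 FPKM. In HFD-ncls WAT (0.142%) it was 0.245% with nothing subtracted, 0.117% against NCD-veh liver and 0.228% over NCD-veh WAT. The other 45 counts stayed within 1.5 times, or equal to 2 digits for shares.

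Of 47 single ratios past 2-fold, all kept their side with a pseudocount of 0.01 and with rescaling, and 37 with a pseudocount of 1. Removing the filter, filtering at 5 FPKM and the 1.4-fold threshold leave each ratio unchanged, so no side could be lost there. At 5 FPKM or more only 12 could be compared. With the liver share taken off only 11 could be compared, of which 9 kept their side and 2 (Cfb in muscle) did not. Admitted by deposited level, 46 could be compared, of which 19 kept their side, 14 fell under 2-fold and 13 turned. Those that turned were Fga (-1.29) and Plg (-1.73) for ncls in WAT, Cfi (-0.18), C4bp (-0.22), Masp2 (-2.27), F2 (-0.064), Fga (-0.65), Fgg (-0.14) and Plg (-0.14) for diet in muscle, and C4bp (0.26), Masp2 (1.88), Fga (0.11) and Plg (0.13) for ncls in muscle. These subtracted levels were under 1 FPKM. FPKM without counts gives no interval for genes near 0.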

Other observations

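Of 53 further genes of the same pathways (receptors, membrane regulators, inhibitors and carriers), 52 were measured. Between HFD-veh and NCD-veh WAT, 5 of 38 compared were higher past 2-fold and 7 lower, that is 13.2% against 5.24% of all genes and 18.4% against 3.87%. Vsig4, among the 7 lower, was under 1 FPKM in HFD-veh WAT and so was admitted through NCD-veh WAT. Cfd (factor D or adipsin, the adipocyte protease that cleaves factor B) was at 8163, 653 and 753 FPKM in NCD-veh, HFD-veh, HFD-ncls WAT, a log2 ratio of -3.64 with diet. Thbd (thrombomodulin, the endothelial cofactor of protein C) had -2.01 and Tfpi, the inhibitor of the tissue factor pathway, -1.40. Itgax, an integrin chain that binds iC3b on myeloid cells, had 2.82 and Tfpi2 2.28. Between HFD-ncls and HFD-veh WAT 5 of 41 were higher (12.2% against 1.49% of all genes) and none lower (against 0.214%). Each of the 5 was under 5 FPKM, and under 1 FPKM in HFD-veh WAT, and so was admitted through HFD-ncls WAT.

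In BAT, Kng2, a kininogen gene, had a ratio of 1.86 with diet. Cfd had 821, 404 and 853 FPKM there in the same order, with ratios of -1.02 with diet and 1.08 between HFD-ncls and HFD-veh. With diet in liver 1 of 34 was higher past 2-fold (2.94% against 2.86% of all genes), which was Cfd at 0.163, 10.2 and 5.71 FPKM (5.29). The adipocyte genes summed to 14.6, 28.0 and 24.8 FPKM in liver. Of these, Fabp4, Cidec, Lipe and Pparg were higher in HFD-veh than NCD-veh liver. Adipoq, Lep and Retn were listed at 0 in each liver library, and Plin1 had at most 0.0246 FPKM. The source of the Cfd RNA in liver was not tested. In muscle Vtn (vitronectin, made in liver) had 3.32, 12.6 and 4.34 FPKM, with ratios of 1.89 and -1.51, and Cfd 76.7, 33.4 and 43.9, with -1.20 with diet.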
